A study of Mus musculus with 25 samples.

Results

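Chromosome 14 held 2830 of the 65053 consensus ATAC-seq peaks of this study (4.35%), and all 2830 are described here in the order of their start positions. They lay between position 3048247 and position 125142294 of a chromosome that is 125194864 bp long in the mouse mm9 build. The chromosome was chosen by measured values, since earlier results on these libraries had shown its peaks to be higher in βTC6 than in αTC1. The ATAC-seq values of the pure lines below are therefore a description, their calls included. The mixtures combine the same lines, so their trends repeat this contrast in other libraries and are no independent test of it. Only the RNA-seq is read as a test. The study profiled alpha TC1 clone 6 (αTC1), a clonal glucagon-producing mouse line, and beta-TC-6 (βTC6), an insulin-producing mouse line. Both lines descend from pancreatic endocrine tumours of mice that carried an SV40 T antigen transgene, driven by a glucagon promoter in αTC1 and by an insulin promoter in βTC6. The labels name no treatment for any library used here. ATAC-seq was made from 5 libraries of each pure line and from 9 mixtures in which αTC1 and βTC6 cells were combined in steps of 10%, with 1 library per mixture, and RNA-seq was made from 3 libraries of each line. The labels do not say that replicates came from separate cultures, so p-values measure only the spread between these libraries, which may be technical.

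The libraries carried the hormones of their lines. Glucagon (Gcg) stood at 12112.73, 12266.89 and 14405.91 FPKM in the αTC1 libraries against 172.22 to 266.94 in βTC6, and insulin 2 (Ins2) at 30953.8, 35747.95 and 23540.65 FPKM in βTC6 against 0.19 to 0.64 in αTC1. Of 9 markers of other cell types of the pancreas, vessels, blood and stroma, 2 exceeded 1 FPKM in all βTC6 libraries and 0 did so in any αTC1 library, and the list summed to between 239 and 350 FPKM in βTC6 and to between 0.48 and 1.3 in αTC1. Those were the delta-cell hormone somatostatin (Sst), at 207.09 to 325.33 FPKM, and pancreatic polypeptide (Ppy), at 3.7 to 50.81 FPKM, while the other 7 markers reached at most 0.88 FPKM in any library. Their part in the results was not tested. Reads in consensus peaks numbered 6903416 to 8300868 in the αTC1 libraries, 4397851 to 10374903 in the βTC6 libraries and 5277983 to 7294832 in the mixtures. The deepest library, βTC6 replicate 5, also gave the highest median ratio of chromosome 14. Within each line replicates 1 to 3 resembled each other (chi-square per degree of freedom 1.99 to 2.49 between libraries) more than any pair with replicate 4 or 5 (4.26 to 9.93), and the labels name no cause for this. The median log2 ratio of the chromosome's peaks, 1.54 over all libraries, was 1.49 in replicates 1 to 3 alone and 1.59 in replicates 4 and 5 alone.

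ATAC-seq uses a transposase that inserts sequencing adapters into DNA not covered by nucleosomes, so reads gather over promoters, enhancers and other open sites. Promoters of genes that every cell uses tend to be open in all cell types, whereas sites far from genes are more often open in a single cell type. The number of reads at a site depends on how often it is open and on how many copies of that DNA the cells carry, and read counts alone cannot tell these apart. A peak's value here is its TMM-normalized read count, reads per peak after the submitters' trimmed-mean scaling between libraries, and all log2 ratios are βTC6 over αTC1 on the scale log2(normalized reads + 1), which understates the change of low peaks.

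Sequences are shown for 3 of the peaks with the highest and 3 of the peaks with the lowest ratio on the chromosome, and for the Pcdh9 promoter, where the peak and the gene moved apart. Each is the 300 bases around the peak's centre on the plus strand of mm9, from the NCBIM37 assembly, and none of them overlaps an annotated exon. Capitals mark exact matches, on either strand, to 7 short motifs: the E-box CAGCTG, the homeodomain core TAATTA, the forkhead motif TGTTTAC, the GC box GGGCGG, the AP-1 motif TGACTCA, the ETS motif CCGGAAG and a CTCF core CNAGGNGGC.
Higher in βTC6, between genes near Olfm4, window chr14:80876546-80876845: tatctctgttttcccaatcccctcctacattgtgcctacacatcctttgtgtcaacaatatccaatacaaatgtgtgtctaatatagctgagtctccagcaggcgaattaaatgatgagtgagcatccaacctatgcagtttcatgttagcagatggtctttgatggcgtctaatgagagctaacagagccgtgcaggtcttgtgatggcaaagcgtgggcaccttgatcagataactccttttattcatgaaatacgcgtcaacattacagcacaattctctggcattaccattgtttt
Higher in βTC6, between genes with Slitrk6 as the nearest coding gene, window chr14:110253902-110254201: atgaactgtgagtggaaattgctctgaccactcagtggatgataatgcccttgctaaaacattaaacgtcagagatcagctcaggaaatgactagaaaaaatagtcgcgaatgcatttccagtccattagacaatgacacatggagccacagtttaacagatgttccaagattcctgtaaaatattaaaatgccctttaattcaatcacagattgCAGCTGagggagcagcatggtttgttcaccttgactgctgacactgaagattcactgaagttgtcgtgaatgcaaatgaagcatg
Higher in βTC6, between genes near Klf5, window chr14:99765886-99766185: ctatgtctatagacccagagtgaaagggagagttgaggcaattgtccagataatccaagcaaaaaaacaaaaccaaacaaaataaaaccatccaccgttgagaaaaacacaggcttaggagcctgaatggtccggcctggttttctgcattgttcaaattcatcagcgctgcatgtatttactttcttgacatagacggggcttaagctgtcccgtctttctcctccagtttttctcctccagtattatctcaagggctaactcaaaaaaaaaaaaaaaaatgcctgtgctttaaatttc
Lower in βTC6, in an intron of Lrch1, window chr14:75321737-75322036: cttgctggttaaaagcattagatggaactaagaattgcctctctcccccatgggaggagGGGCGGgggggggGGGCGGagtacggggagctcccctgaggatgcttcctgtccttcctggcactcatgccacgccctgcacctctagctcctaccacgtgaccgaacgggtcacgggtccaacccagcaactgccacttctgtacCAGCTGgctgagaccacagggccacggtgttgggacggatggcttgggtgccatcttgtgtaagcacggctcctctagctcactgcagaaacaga
Lower in βTC6, in an intron of Tnfrsf19, window chr14:61607155-61607454: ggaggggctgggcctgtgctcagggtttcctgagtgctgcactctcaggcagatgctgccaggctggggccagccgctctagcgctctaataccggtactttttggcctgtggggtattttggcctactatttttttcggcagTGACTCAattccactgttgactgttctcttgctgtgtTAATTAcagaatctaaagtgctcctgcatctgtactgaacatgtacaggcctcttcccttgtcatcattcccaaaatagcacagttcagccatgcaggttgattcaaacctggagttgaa
Lower in βTC6, between genes near Gng2, window chr14:20806100-20806399: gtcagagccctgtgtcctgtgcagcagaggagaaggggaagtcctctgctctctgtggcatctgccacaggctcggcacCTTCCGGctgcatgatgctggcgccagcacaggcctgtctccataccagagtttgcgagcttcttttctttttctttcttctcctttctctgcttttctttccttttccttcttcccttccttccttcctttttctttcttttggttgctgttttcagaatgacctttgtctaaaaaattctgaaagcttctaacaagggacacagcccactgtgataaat
Higher in βTC6, upstream of Pcdh9, window chr14:94289656-94289955: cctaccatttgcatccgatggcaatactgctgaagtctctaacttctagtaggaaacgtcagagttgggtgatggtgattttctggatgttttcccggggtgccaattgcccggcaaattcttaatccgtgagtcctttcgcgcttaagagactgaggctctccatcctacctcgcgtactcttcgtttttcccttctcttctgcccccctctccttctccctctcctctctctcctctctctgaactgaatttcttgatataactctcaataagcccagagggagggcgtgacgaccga
The Olfm4, Klf5 and Pcdh9 windows held none of the 7 motifs, and the Lrch1 window held an E-box and 2 GC boxes. The window nearest Slitrk6 held an E-box, the Tnfrsf19 window a homeodomain core and an AP-1 motif, and the Gng2 window an ETS motif on the minus strand.

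Peaks of chromosome 14 took a mean of 1.71% ± 0.0785 (SD, n = 5) of the normalized reads in αTC1 and 5.10% ± 0.266 (SD, n = 5) in βTC6. The share was 1.76%, 1.76%, 1.77%, 1.59% and 1.68% in αTC1 replicates 1 to 5 and 5.02%, 5.12%, 4.96%, 4.85% and 5.54% in βTC6 replicates 1 to 5. The lines did not overlap, and the chromosome's share of the consensus peaks themselves, 4.35%, lay between them. The median log2 ratio of the 2830 peaks was 1.54, a 2.9-fold difference on this scale, with quartiles of 0.71 and 2.38. Taken library by library against the αTC1 mean, the median was 1.47, 1.51, 1.43, 1.45 and 1.74 in βTC6 replicates 1 to 5. It stayed within 0.01 of 0 in every αTC1 library.

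**Figure D1:**
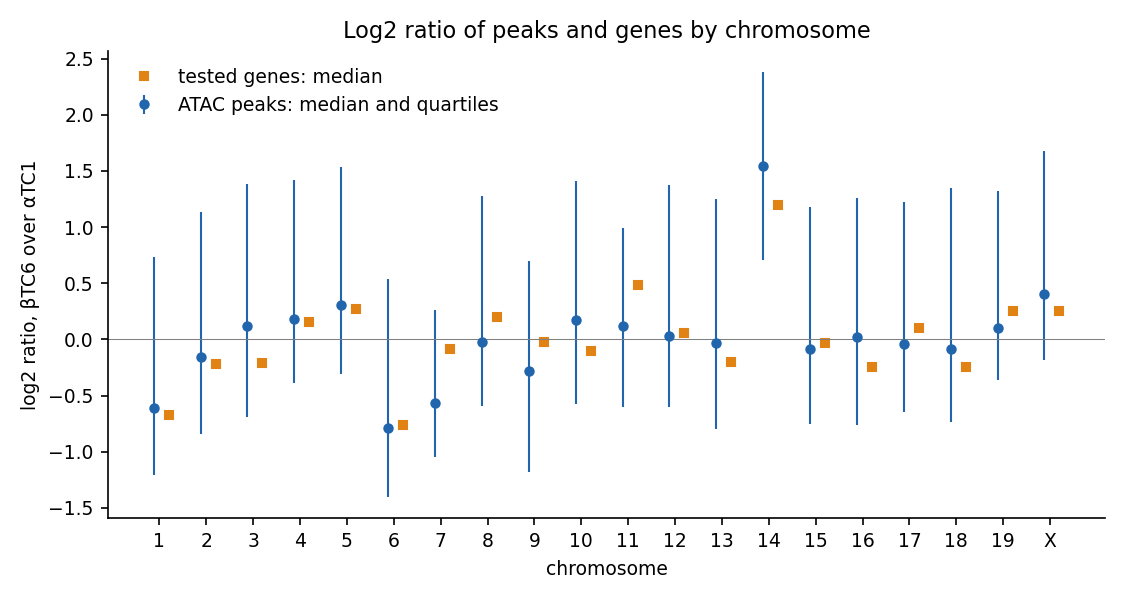
Log2 ratio of βTC6 over αTC1 by chromosome, with the median and quartiles of all ATAC-seq peaks as circles with bars and the median of all tested genes as squares. Chromosome 14 stands at 1.54 for peaks and 1.2 for genes, and the medians of every other chromosome lie between -0.79 and 0.48.

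Between chromosomes, the plot of peak and gene medians shows chromosome 14 apart from the rest. The median log2 ratio of peaks on the other 19 chromosomes with at least 20 peaks ran from -0.79 on chromosome 6 to 0.4 on chromosome X. On chromosome 14, 2604 peaks (92.0%) had a ratio above 0 and 226 had one below, against 48.3% above 0 over all other chromosomes. At FDR 5% and a log2 ratio over 2, 1004 peaks (35.5%) were called higher in βTC6, beside 12.9% of all peaks, and 24 were called lower, beside 5.38% of all peaks. In 2200 peaks every βTC6 library exceeded every αTC1 library, beside 33.7% of all peaks, and in 126 the order was the opposite, beside 30.2% of all peaks. All these counts come from the contrast by which the chromosome was chosen and nothing is read from them. Around the threshold, the called peak nearest to it on the low side stood at -2.01 and the first peak short of it at -1.96, while on the high side the ratios ran on through 2 without a gap.

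Many of these peaks were low. In 190 peaks of the chromosome all 5 αTC1 libraries held at most 3 reads, in 59 all 5 βTC6 libraries did, and in 58 all 10 pure libraries did. Between 12.3% and 15.5% of the chromosome's peaks stood at the lowest value of their library in αTC1, against 2.08% to 2.51% in βTC6. That value was taken as a single read and may also stand for peaks without reads. The size of the median depended on the processing: it was 0.81 with a pseudocount of 5 and 2.09 with edgeR on the recovered reads, while centring each library on its autosomal peaks outside chromosome 14, which moved the median of all peaks to -0.24, gave 1.3.

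Along the chromosome the log2 ratio varied over many megabases, and all 26 bins of 5 Mb had a median above 0. Among the 25 bins with at least 20 peaks, the lowest medians were 0.51 at 50 to 55 Mb (63 peaks), 0.66 at 25 to 30 Mb (96 peaks) and 0.73 at 30 to 35 Mb (107 peaks). The highest were 2.1 at 105 to 110 Mb (124 peaks) and 2.09 both at 95 to 100 Mb (142 peaks) and at 115 to 120 Mb (161 peaks). In the lowest bin the medians of βTC6 replicates 1 to 5 were 0.47, 0.5, 0.54, 0.54 and 0.4, and in the highest they were 2, 2.18, 1.92, 1.97 and 2.27. These bins did not overlap between libraries, whereas the 3 highest bins overlapped each other throughout. Within a bin of at least 20 peaks the βTC6 libraries spanned 0.12 to 0.68, and in all 26 bins they lay above all αTC1 libraries, whose bin medians ranged from -0.26 to 0.09.

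**Figure D2:**
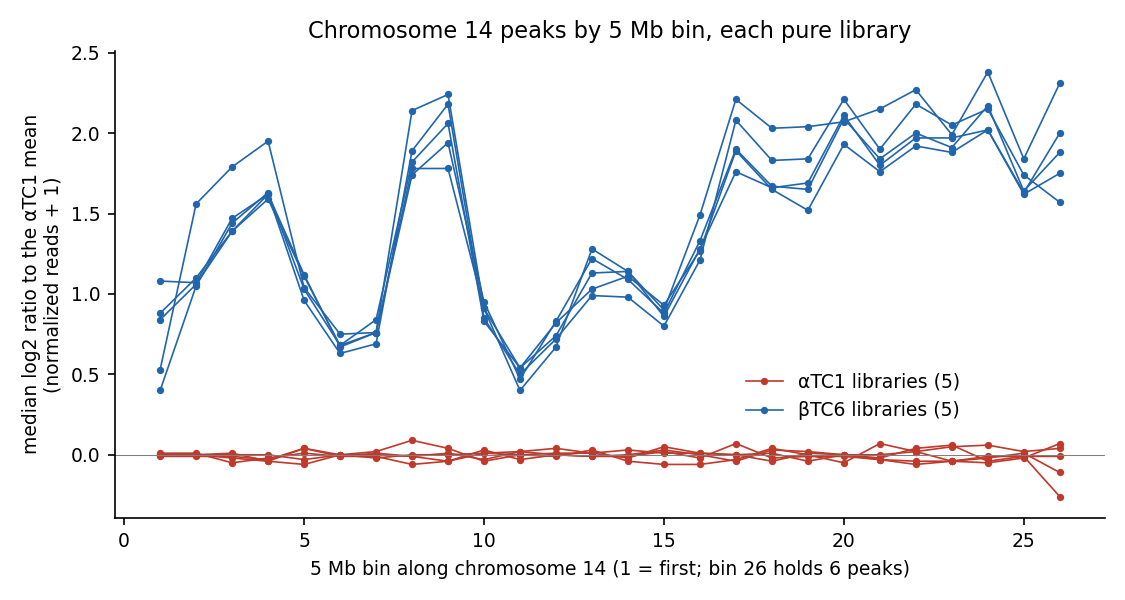
Median log2 ratio of the peaks in each 5 Mb bin of chromosome 14 to the αTC1 mean, with a line for each of the 5 αTC1 and 5 βTC6 libraries. The βTC6 libraries follow 1 profile, with low stretches at bins 5 to 7 and 10 to 16 and high ones at bins 8 to 9 and 17 to 25, and the αTC1 libraries stay near 0.

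Read as stretches drawn after the bins were seen, the median was 1.39 at 0 to 20 Mb, 0.77 at 20 to 35 Mb, 1.89 at 35 to 45 Mb, 0.93 at 45 to 80 Mb and 1.93 at 80 to 125 Mb, with 6 peaks beyond. The stretch of 45 to 80 Mb carries the T cell receptor alpha and delta segments, Bmp4, Gata4, the neurofilament genes Nefl and Nefm, and Rb1, and held 788 peaks, 22.5 per Mb, of which 7.23% lay over 100 kb from any annotated transcription start. The stretch of 80 to 125 Mb carries few genes, among them protocadherins, Slitrk genes and glypicans that act in cell adhesion, and held 1193 peaks, 26.5 per Mb, of which 38.6% lay over 100 kb from a start. At 35 to 45 Mb that share was 37.4%, and at 20 to 35 Mb it was 14.8%. The high stretches were thus those with more peaks far from genes.

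The log2 ratio was graded by the distance to the nearest transcription start. The median was 0.81 for the 596 promoter peaks, which lay within 2 kb of a start, 1.38 for the 336 peaks at 2 to 10 kb, 1.6 for the 1201 peaks at 10 to 100 kb and 2.02 for the 697 peaks farther away. In the 5 βTC6 libraries the promoter median lay between 0.77 and 0.88 and the median of the farthest class between 1.94 and 2.3, so these classes did not overlap. The same order held on the other autosomes, at -0.35, -0.19, 0.09 and 0.84, and the chromosome stood above them by 1.16, 1.57, 1.51 and 1.18 in the 4 classes. Levels differed as well: the median normalized read count of promoter peaks was 10.9 in αTC1 and 22.6 in βTC6, beside 21.4 and 18.1 on the other autosomes. For peaks over 100 kb from a start it was 0.904 in αTC1 and 8.08 in βTC6, beside 3.04 and 6.22.

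After the median of the same distance class on the other autosomes was subtracted, the bins of at least 20 peaks ranged from 0.77 to 1.82. The stretches then stood at 1.31, 0.94, 1.63, 1.12 and 1.57 in order along the chromosome against 1.39, 0.77, 1.89, 0.93 and 1.93 before, so the profile was narrower but kept its order except that 35 to 45 Mb passed 80 to 125 Mb. Promoter peaks alone gave stretch medians of 0.64, 0.63, 1.26, 0.74 and 1.35, and peaks over 100 kb from a start gave 1.88, 1.82, 2.18, 1.6 and 2.08. In each of these readings the stretches of 35 to 45 Mb and 80 to 125 Mb were the highest. The part of peak height and gene distance in the profile was not tested further.

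Base composition ran with the ratio too. The median GC content of the 300-base windows was 45.7% on chromosome 14 and 48% over all peaks. The 731 peaks of lowest GC content (25% to 40.3%) had a median log2 ratio of 2.03 and the 700 of highest (53% to 84%) one of 0.81, beside 0.93 and -0.37 for peaks of the other autosomes with the same GC content. The homeodomain core was found in 12.6% of the chromosome's windows, beside 9.86% of all windows, and the GC box in 16.5% beside 19.8%. Windows with the homeodomain core had a median ratio of 2.22 (356 peaks) and windows with the GC box one of 0.86 (468 peaks). Promoter windows held the GC box in 54.7% of cases on the chromosome and 53.8% among all promoter peaks. By height, taken as the mean in the higher line, 4 classes of about equal size had medians of 1.25, 1.83, 2 and 1.24 from low to high, against 0.13, 0.27, 0.1 and -0.51 for other autosomal peaks of the same height.

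The 5 peaks with the highest log2 ratio, among the 1392 with a mean of at least 10 normalized reads in the higher line, had few reads in αTC1. The first, chr14:80876259-80877132, lies between genes, 476586 bp from the start of Olfm4, which encodes the secreted glycoprotein olfactomedin 4. It had 0.28, 0.843, 0.451, 0.682 and 0.433 normalized reads in αTC1 replicates 1 to 5 and 58.2, 58.0, 56.2, 55.9 and 71.5 in βTC6 replicates 1 to 5, a log2 ratio of 5.32. At most 6 reads lay behind any of its αTC1 values. The second, chr14:37911007-37911875, covers the start of Cdhr1, which encodes a cadherin of photoreceptors. Its values were 1.12, 0.843, 1.5, 2.32 and 0.722 in αTC1 and 82.6, 98.9, 78.8, 79.9 and 102 in βTC6, a ratio of 5.31. The peaks at chr14:110253584-110254519, with Slitrk6 as its nearest coding gene 900320 bp away, and at chr14:99765380-99766691, 68125 bp from the start of the transcription factor gene Klf5, lie between genes and had ratios of 5.29 and 5.28. The fifth, chr14:112073790-112075776, covers the start of Slitrk5, a neuronal transmembrane protein, and had 2.12 ± 0.971 in αTC1 and 114 ± 13 in βTC6 (SD, n = 5 each), a ratio of 5.24. In all 5 peaks the lines did not overlap, but the peaks were chosen by their ratio, so nothing is read from this.

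The 24 peaks called lower in βTC6 were among 226 with a ratio below 0, and 23 of the 24 (95.8%) lay before 80 Mb, as did 57.6% of all peaks of the chromosome. None was over 100 kb from a transcription start, 16 lay at 10 to 100 kb, and 13 (54.2%) were in introns of coding genes, beside 39.7% of all its peaks. The lowest, chr14:75321638-75322134 in an intron of Lrch1, had 22.4, 20.9, 23.6, 24.6 and 20.1 normalized reads in αTC1 and 2.98, 0.205, 4.86, 0.856 and 2.63 in βTC6, a log2 ratio of -3.03. The next, chr14:54740761-54741390, lies 826 bp from the T cell receptor delta D segment Trdd2 and had 14.3 ± 2.02 in αTC1 and 1.11 ± 0.287 in βTC6 (SD, n = 5 each), a ratio of -2.86. The other 3 were in an intron of Peli2 (chr14:48865606-48866459, -2.8), in an intron of Tnfrsf19, which encodes a TNF receptor family member (chr14:61606995-61607613, -2.71), and 9400 bp from the start of Gng2, a G protein gamma subunit gene (chr14:20805741-20806757, -2.59). The lines did not overlap in any of these 5 peaks, which were also chosen by their ratio, so nothing is read from this. The E-box was found in 11 of the 24 windows (45.8%) and in 193 of the 1004 windows of the peaks called higher (19.2%), beside 23.8% of all windows. The homeodomain core was found in 3 of the 24 (12.5%) and in 196 of the 1004 (19.5%).

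The 5 highest promoter peaks, with 1 exception, had a ratio under the median of all the chromosome's peaks (1.54). The median of its promoter peaks was 0.81, and of these 5 only the Nr1d2 peak lay under that. The peak of Nr1d2, which encodes the circadian repressor REV-ERB beta (chr14:19070747-19072220), had 118, 116, 122, 128 and 148 normalized reads in αTC1 and 189, 169, 164, 198 and 244 in βTC6, a log2 ratio of 0.6. Those of the small GTPase gene Rap2a (chr14:120876445-120878218), of Tmtc4 (chr14:123381681-123383132) and of the glypican gene Gpc6 (chr14:117324249-117326427) had ratios of 0.94, 0.91 and 1.04. The Pcdh9 promoter peak (chr14:94288704-94290906) was the exception, at 59.5 ± 5.31 in αTC1 and 178 ± 31.2 in βTC6 (SD, n = 5 each), a ratio of 1.55. In all 5, βTC6 replicate 5 was the highest library.

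Across the 9 mixtures, libraries that played no part in the choice of the chromosome, its share of the normalized reads rose at all 8 steps. It was 1.87% at 10% βTC6, 2.07% at 20%, 2.37% at 30%, 2.68% at 40%, 3.3% at 50%, 3.55% at 60%, 3.78% at 70%, 4.49% at 80% and 5.01% at 90%. The Wilson 95% interval, which covers counting error only, was at most 0.0317 points wide, so each step exceeded counting error. A straight line between the pure means passes through 3.41% at the middle, and 7 of the 9 mixtures lay under it. The difference from the line ranged from -0.388 points at 40% βTC6 to 0.248 points at 90%, while the βTC6 libraries themselves had an SD of 0.266 points. With 1 library per mixture there is no replicate check of these distances.

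**Figure D3:**
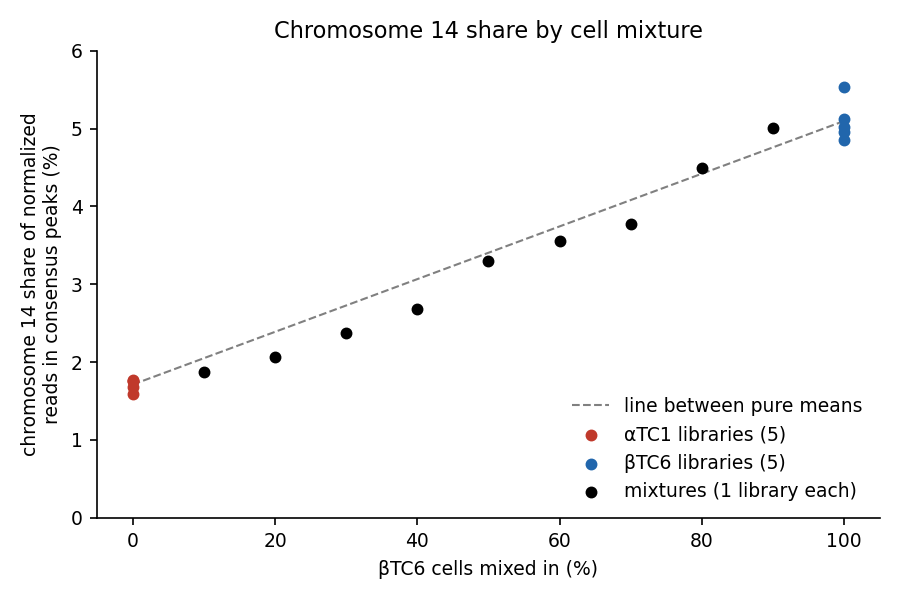
Chromosome 14 share of the normalized reads in consensus peaks against the percentage of βTC6 cells, for 5 αTC1 libraries, 9 mixtures and 5 βTC6 libraries, with a dashed line between the pure means. The mixtures rise from 1.87% to 5.01%, below the line up to 70% βTC6 and on or above it at 80% and 90%.

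Peak by peak, limma on the 9 mixtures called 2138 of the 2830 peaks as rising with the βTC6 percentage at FDR 5%, beside 33.5% of all peaks, and 115 as falling, beside 24.8% of all peaks. The rising peaks made up 75.5% of the chromosome and the falling ones 4.06%. The median slope, the log2 change from 0 to 100% βTC6, was 1.73 (quartiles 0.86 and 2.65), against 0.03 over all other chromosomes. Of the 24 peaks called lower in pure βTC6, all 24 fell across the mixtures, and of the 1004 called higher, 993 rose. The mixtures were made from the same 2 cell lines and show the same contrast in other libraries, so the match with the pure-line calls follows from the mixing.

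The peaks of highest and lowest ratio changed across the mixtures by steps of different size. The peak near Olfm4 had 4.27, 4.34, 13.8, 19.7, 29.7, 37.6, 38.6, 50 and 63.3 normalized reads from 10% to 90% βTC6, with a slope of 4.66 ± 0.38 (SE, adjusted p = 6.9e-08 by limma). The Cdhr1 promoter peak had 6.1, 7.81, 22.4, 33.4, 46, 52.3, 55.4, 72.3 and 81.8, with a slope of 4.42 ± 0.41 (adjusted p = 1.82e-07 by limma). Both thus stood above every pure αTC1 library already with 10% βTC6 cells. In the other direction the Lrch1 peak went from 18.1 at 10% βTC6 to 4.44 at 90%, with a slope of -2.32 ± 0.31 (adjusted p = 9.96e-06 by limma), and the peak near Trdd2 from 15 to 2.56, with a slope of -2.91 ± 0.38 (adjusted p = 6.16e-06 by limma). Among the high promoter peaks the slope was 0.76 ± 0.14 for Nr1d2 (adjusted p = 0.000147 by limma) and 2.21 ± 0.17 for Pcdh9 (adjusted p = 3.63e-08 by limma).

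The 2 high stretches stayed above the 2 low ones in all 9 mixtures, while the order within each pair varied. At 50% βTC6 the median log2 ratio to the αTC1 mean was 0.89 at 0 to 20 Mb, 0.34 at 20 to 35 Mb, 1.28 at 35 to 45 Mb, 0.46 at 45 to 80 Mb and 1.34 at 80 to 125 Mb. At 10% βTC6 the stretches of 35 to 45 Mb and 80 to 125 Mb stood at 0.31 and 0.33, above all pure αTC1 libraries, whereas those of 20 to 35 Mb and 45 to 80 Mb stood at 0.03 and 0.02, where the αTC1 libraries reached 0.02 and 0.01. In 14 of the 26 bins the median rose at each of the 8 steps. In the lowest bin, 50 to 55 Mb, it was 0.01, -0.02, -0.14, 0.04, 0.14, 0.14, 0.15, 0.19 and 0.29 from 10% to 90% βTC6, and in the highest, 105 to 110 Mb, it was 0.45, 0.57, 1.01, 1.26, 1.53, 1.68, 1.65, 2.04 and 2.18.

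**Figure D4:**
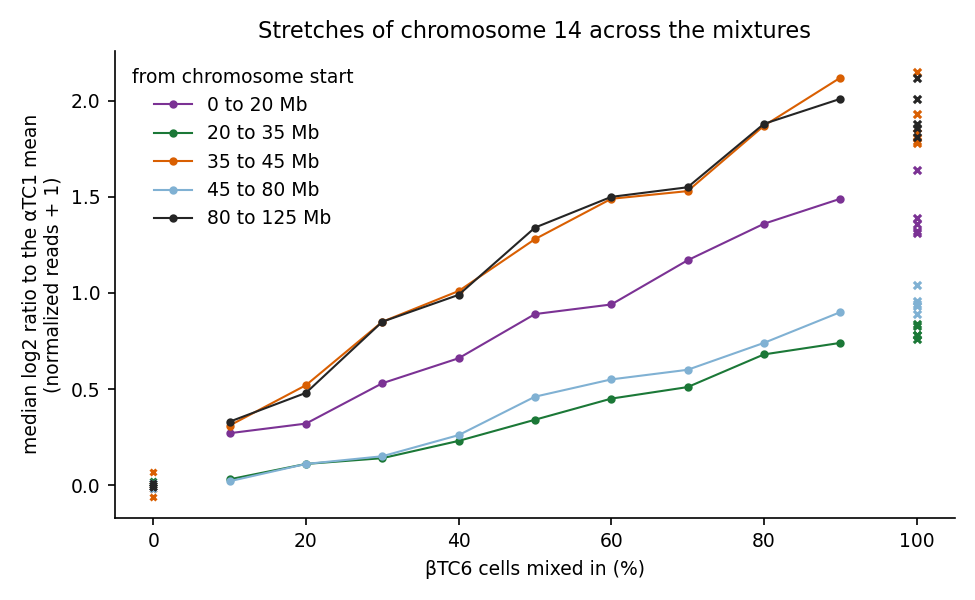
Median log2 ratio of the peaks in 5 stretches of chromosome 14 to the αTC1 mean, against the percentage of βTC6 cells, with circles for the 9 mixtures and crosses for the 5 pure libraries at each end. The stretches of 35 to 45 Mb and 80 to 125 Mb run together to 2.12 and 2.01 at 90% βTC6, and those of 20 to 35 Mb and 45 to 80 Mb reach 0.74 and 0.9.

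The chromosome's peaks alone were also used to estimate each mixture, by a least-squares fit of its normalized reads between the means of the pure lines. The estimated βTC6 percentage was 7.46, 13.6, 21.1, 32.9, 52.8, 61, 66.8, 90.3 and 107 for mixtures of 10% to 90%, a mean of 0.32 points above the mixed percentage. The mean was 2.51 points without βTC6 replicate 5 and -4.07 with replicates 4 and 5 alone as the pure reference. The mean of 0.32 balances distances of both signs, whose mean size was 6.58 points, and 12 of 19 other chromosomes had a smaller one. It lay under the mixed percentage at 10% to 40% and at 70% and above it at the rest. The medians of the same estimate over 19 other chromosomes were 10.2, 16.3, 32.7, 36.4, 51.9, 58.2, 64.8, 79.9 and 92.3, and at 80% and 90% βTC6 chromosome 14 exceeded all 19. The estimate failed on some of these chromosomes: 6 of the 19 gave a percentage below 0 in at least 1 mixture, down to -186 on chromosome 6 at 10% βTC6, and all peaks outside chromosome 14 together gave -146 at 10% and 62.5 at 90%. The pure reference mattered, since with replicates 4 and 5 alone the estimates became 82.3 and 97.5 for those mixtures and with βTC6 replicate 5 left out, a choice made after seeing the data, 94.4 and 112.

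RNA-seq gave a second measurement, which the choice of the chromosome did not use. Of 12195 genes that reached 1 FPKM throughout the 3 libraries of αTC1 or of βTC6, 415 lay on chromosome 14, and their median log2 ratio was 1.2, a 2.3-fold difference, with quartiles of 0.69 and 1.85. The genes of all other chromosomes had a median of -0.02, and single chromosomes ran from -0.76 to 0.48. At FDR 5% in edgeR, 361 of the 415 rose in βTC6 (87.0%, beside 38.7% of all genes) and 16 fell (3.86%, beside 36.0% of all genes). With a log2 ratio over 2 as well, 93 rose, beside 10.2% of all genes, and 8 fell below -2, beside 4.08% of all genes. Chromosome 14 took 1.5%, 1.5% and 1.48% of the expected counts in αTC1 replicates 1 to 3 and 3.06%, 3.22% and 3.08% in βTC6, without overlap. Each RNA library came from a pure line by its label. Bulk RNA cannot tell the share of expressing cells from the RNA per cell, and DNA copies of the chromosome were not measured. With library sizes set by the ERCC spike-ins, 227 genes in place of 361 passed FDR 5% in the higher direction, at a median of 1.17. The spike-ins made up 0.723%, 0.555% and 0.589% of the counts in αTC1 replicates 1 to 3 and 0.436%, 0.602% and 0.971% in βTC6. The part of this spread in the smaller number of genes was not tested.

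The RNA medians did not repeat the ATAC-seq profile. They were 1.76 at 0 to 20 Mb (42 genes), 1.2 at 20 to 35 Mb (83 genes), 1.26 at 35 to 45 Mb (12 genes), 1.14 at 45 to 80 Mb (221 genes) and 1.21 at 80 to 125 Mb (56 genes). The stretches of lowest and highest ATAC-seq ratio thus had RNA medians between 1.14 and 1.26, although few genes stood behind 35 to 45 Mb. A single tested gene lay beyond 125 Mb. In the bin of lowest ATAC-seq median, 50 to 55 Mb, 23 of 27 tested genes had a ratio above 0, with a median of 0.97.

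All 34 genes of the housekeeping list (proteasome, translation, RNA and chromatin factors, trafficking) rose in βTC6 at FDR 5%, with a median log2 ratio of 0.99 beside 0.01 over all genes tested. Of all tested genes of the chromosome 87.0% rose, and of all tested genes 38.7%. With spike-in scaling all 34 kept a ratio above 0, but only 16 passed FDR 5% by edgeR. Tpt1, which encodes the translationally controlled tumour protein, stood at 625.25, 632.95 and 595.85 FPKM in αTC1 and at 2041.23, 2329.36 and 2201.26 in βTC6, a log2 ratio of 1.86 ± 0.1 (SE, adjusted p = 3.47e-07 by edgeR). The ribosomal protein gene Rps24 went from 600 ± 50.4 to 1580 ± 93.6 FPKM (SD, n = 3 each), a ratio of 1.48. Tpt1 and Rps24 have processed copies elsewhere in the genome that can share reads, so their levels are less certain. Dad1, a subunit of the oligosaccharyltransferase, went from 46 ± 1.3 to 221 ± 35 FPKM (SD, n = 3 each), a ratio of 2.32 and the only member past both thresholds. The ubiquitin-like modifier gene Nedd8 had a ratio of 1.33. Promoter peaks of these 4 genes had log2 ratios of 0.72, 0.5, 0.49 and 0.74.

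Of the islet function and hormone secretion list, 16 of 20 members were tested, 14 rose (11 with spike-in scaling), none fell, and the median log2 ratio was 2.11. The share that rose, 87.5%, was close to the 87.0% of all tested genes of the chromosome. The risen genes included the calcium channel genes Cacna1d and Cacna2d3 and the vesicle priming factor gene Cadps. The potassium channel gene Kcnma1 and the cation leak channel gene Nalcn rose as well. Of the 16 tested members 10 passed both thresholds, beside 22.4% of the chromosome's tested genes and 10.2% of all genes. The list was chosen with earlier results of these data known, so nothing is read from this. Among the 4 members of highest expression, Dnajc3, an inhibitor of stress kinases of the unfolded protein response, stood at 8.41, 8.59 and 8.15 FPKM in αTC1 and at 48.13, 61.52 and 36.12 in βTC6, a ratio of 2.59 ± 0.18 (SE, adjusted p = 1.77e-06 by edgeR). The kinase gene Mapk8 rose by 1.42 and the glutamate dehydrogenase gene Glud1 by 0.62 on the log2 scale, although Glud1 did not pass with spike-in scaling (adjusted p = 0.315 by edgeR). Ppif, which encodes the mitochondrial cyclophilin, had a ratio of 0.22 and did not pass (adjusted p = 0.156 by edgeR).

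The mitochondrial and carbon metabolism list had 13 tested members of 16, of which 10 rose and 0 fell at FDR 5% by edgeR, with a median of 0.74. The share that rose was 76.9%, beside 87.0% over the chromosome and 38.7% over all genes, and with spike-in scaling 4 of the 13 rose. No member passed both thresholds in either direction. Esd, an esterase gene, rose from 40.3 ± 5.91 to 124 ± 5.35 FPKM (SD, n = 3 each), a log2 ratio of 1.7, and Pdhb, a subunit of pyruvate dehydrogenase, rose from 51.9 ± 4.39 to 107 ± 8.93 FPKM (SD, n = 3 each), a ratio of 1.11. Vdac2, a channel of the outer mitochondrial membrane, rose by 0.74 on the log2 scale (adjusted p = 6.2e-05 by edgeR), but did not pass with spike-in scaling, at 0.69 (adjusted p = 0.224 by edgeR). Ghitm, an inner membrane protein gene, stood at 106.33, 106.63 and 88.21 FPKM in αTC1 and at 93.99, 90.37 and 103.1 in βTC6. Its ratio of 0.06 did not pass (adjusted p = 0.63 by edgeR), and the lines overlapped, while its promoter peak stood at 0.79.

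Of the 20 developmental regulators, 13 fell short of the expression filter, and of the 7 tested 6 rose (4 with spike-in scaling) and none fell, a share of 85.7% beside 87.0% over the chromosome. Gata4, a zinc finger transcription factor gene, went from 2.85 ± 0.0458 to 9.52 ± 0.699 FPKM (SD, n = 3 each), a log2 ratio of 1.79. The BMP receptor gene Bmpr1a rose by 0.85 and Klf5 by 1.1 on the log2 scale, and both lost FDR 5% with spike-in scaling (adjusted p = 0.105 and 0.0792 by edgeR). Dach1 had a ratio of 0.18 (adjusted p = 0.272 by edgeR).

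The list of neuronal adhesion and growth cone genes held members that fell. Of 15 tested members of 18, 10 rose, 3 fell (8 and 2 with spike-in scaling), and the median log2 ratio was 1.38. The share that rose was 66.7%, beside 87.0% over the chromosome, where 3.86% fell, and 36.0% of all genes fell. The difference from the other lists was not tested. The neurofilament gene Nefm stood at 307.32, 320.04 and 307.22 FPKM in αTC1 and at 111.67, 162.91 and 129.7 in βTC6, a ratio of -1.15 ± 0.14 (SE, adjusted p = 6.91e-05 by edgeR), and Pcdh9 at 7.63, 7.48 and 9.2 against 2.24, 1.77 and 2.34, a ratio of -2.0 ± 0.14 (SE, adjusted p = 1.51e-06 by edgeR). The lines did not overlap in either gene, and Pcdh17, another protocadherin gene, was the third to fall, by 0.87 on the log2 scale. Slitrk6 rose from 3.55 ± 0.635 to 20.7 ± 4.03 FPKM (SD, n = 3 each), a ratio of 2.6, and the growth cone protein gene Dpysl2 rose by 1.38. Nefl, whose gene model lies inside that of Nefm on the other strand, so that reads counted without strand can be assigned to either, had a ratio of -0.03 (adjusted p = 0.844 by edgeR).

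Of the growth control loci, 4 of 8 were tested and 3 of them rose (2 with spike-in scaling), a share of 75.0% beside 87.0% over the chromosome and 38.7% over all genes. The retinoblastoma gene Rb1 went from 10.1 ± 0.0819 to 17.5 ± 1.01 FPKM (SD, n = 3 each), a log2 ratio of 0.91, and passed FDR 5% except with spike-in scaling (adjusted p = 0.0928 by edgeR). Fhit was listed at 0 in the 3 αTC1 libraries and at 3.57, 2.63 and 4.43 FPKM in βTC6, at least 21.9-fold higher against a floor of 3 counts per library. The noncoding RNA gene Dleu2 had a ratio of 2.56, and Bnip3l, a mitophagy receptor gene, 0.19 (adjusted p = 0.297 by edgeR).

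**Figure D5:**
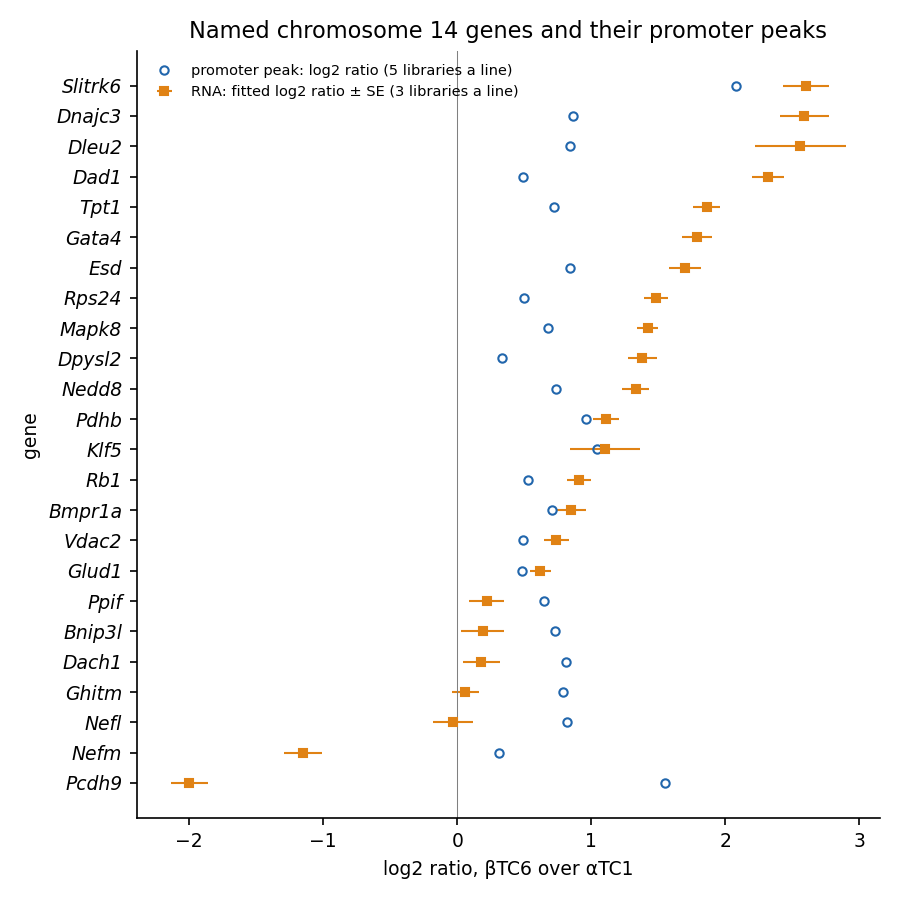
Log2 ratio of βTC6 over αTC1 for the named chromosome 14 genes that were not at or near 0 in either line, with squares and bars for RNA (fit and SE, 3 libraries a line) and open circles for the highest promoter peak (5 libraries a line). The RNA ratios run from -2.0 for Pcdh9 to 2.6 for Slitrk6, and all promoter peaks shown lie above 0.

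The largest RNA differences were of genes at or near 0 in a single line. Rec8, a meiotic cohesin subunit gene, was listed at 0 in all αTC1 libraries and at 39.22, 44.54 and 45.7 FPKM in βTC6, at least 672-fold higher against the floor of 3 counts. Its promoter peak stood at 0.428 ± 0.222 in αTC1 and at 22.4 ± 3.39 in βTC6 (SD, n = 5 each). Fam124a and Synpr, the latter a synaptic vesicle protein gene, were also listed at 0 in αTC1 and were at least 161-fold and 121-fold higher. Cdhr1 rose from 0.06, 0.08 and 0.05 FPKM to 95.5, 134.68 and 93.04, and Abcc4, an exporter of cyclic nucleotides, from 0.02, 0.01 and 0.01 to 12.84, 11.26 and 13.68. Cdhr1 is the gene whose start lies under the peak of second highest ratio. In the opposite direction, only 3 genes past both thresholds reached 5 FPKM in all αTC1 libraries. They were Pcdh9, which stood at the threshold and passed it no longer without αTC1 replicate 3 (-1.9), without βTC6 replicate 2 (-1.92) or with TMM factors from other chromosomes (-1.97), the predicted gene Gm10119, at 59.58, 63.29 and 69.96 FPKM against a listed 0 in βTC6 (at least 402-fold), and Tpm3-rs7, a tropomyosin-related sequence at 39.97, 41.97 and 36.32 against 0.08, 0 and 0. The last pair may share reads with similar genes, which makes their counts uncertain. The other 5 genes past both thresholds, named after their values were seen, were Rnase1 (-3.44), the retinoic acid receptor gene Rarb (-2.81), Gng2 (-2.61), Ndrg2 (-2.38) and Hr (-2.21). Gng2 is thus a gene that fell in βTC6 and lies nearest to a peak among the 5 lowest.

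Promoter peaks and genes were compared by sign. Of the 415 tested genes, 376 had a peak within 2 kb of their start, and in 353 both the RNA and the highest such peak had a ratio above 0. Both were below 0 for 4 genes, the RNA alone for 16 and the peak alone for 3. Since 356 of the 376 RNA ratios and 369 of the peak ratios were above 0, most pairs share a sign whichever peak is set beside a gene, and nothing is read from the count. The median log2 ratio was 1.2 for the RNA and 0.72 for the peaks of these genes, on scales that differ since the peak values carry a pseudocount of 1. The 39 tested genes without a promoter peak had an RNA median of 1.27. Pcdh9 was among the genes of opposite sign: its promoter peak, shown above, was higher in every βTC6 library, and its RNA lower.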

How the data were processed

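ATAC-seq and RNA-seq libraries of αTC1, βTC6 and their mixtures were grouped by their labels. Chromosome 14 and the gene lists were chosen with earlier results of these data known. Per the labels and the study's methods, the authors used Trimmomatic 0.32 for trimming of ATAC-seq reads, BWA for alignment (mm9), Picard 1.95 against duplicates, MACS2 2.1.0 for peaks in each library and DiffBind 2.2.5 to merge them, and deposited TMM-normalized signal per consensus peak. Dividing each library by its lowest value gave whole reads for 100% of values (tolerance 0.01 of a step). The deposited RNA-seq expected counts and FPKM values came from the authors' Trim Galore, Bowtie2 and RSEM 1.2.12 steps. The kit was stranded, and RSEM was run with default parameters, which do not use strand.

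Peaks were tested with limma 3.58.1 (R 4.3.3, eBayes with trend) on log2(normalized reads + 1) over all 65053 peaks, for the pure lines and, with the βTC6 share as covariate, for the mixtures. Genes were tested with edgeR 4.0.16 (quasi-likelihood, TMM) on the expected counts after rounding, with DESeq2 1.42.0 as an alternative. P-values were Benjamini-Hochberg adjusted over all peaks or genes. The SE of a gene was taken from its log2 ratio and edgeR's F (the ratio over the root of F). The fits were tested on simulated data. Peaks were joined to GENCODE vM1 genes, from which 67 gene identifiers were absent. Windows, bins and shares were computed in Python 3.11.15.

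Named genes were up to 4 of each list by mean FPKM, and the 5 genes of largest change in each direction past both thresholds with FPKM of at least 5 in the higher line. Named peaks were the 5 highest and 5 lowest ratios with a mean of at least 10, the 5 highest promoter peaks and the promoter peaks of named genes, and named bins the 3 highest and 3 lowest medians. Pcdh17, Gng2 and the other lower genes outside the rule, members named only as examples of a list, and the stretches were chosen after their values were seen. The depth, 4397851 to 10374903 reads in peaks per library, leaves values of 3 reads or fewer at the floor of detection.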

Additional observations from a re-analysis of the deposited data

Results flagged for a closer look

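In 7 of the 39 sets of 5 libraries tested, the highest library stood apart from the other 4 by more than the Dixon limit. Chance gives about 1 in 20 for independent sets, but these sets share the same libraries, so the count is not read as a test. βTC6 replicate 5, which is also the deepest library (10374903 reads in peaks), was the highest in 6 of them. Its median log2 ratio of chromosome 14 peaks was 1.74, against 1.43 to 1.51 in the other βTC6 libraries. Its normalized reads were 71.5 at the peak near Olfm4 (others 55.9 to 58.2), 245 at the Rap2a promoter (166 to 179), 217 at Tmtc4 (134 to 154), 233 at Pcdh9 (157 to 169) and 194 at Gpc6 (143 to 156). αTC1 replicate 2 was highest at the Rap2a promoter, with 108 against 90.6 to 95.1. Without βTC6 replicate 5 the chromosome's median was 1.49 and 963 peaks were called higher, and the part of depth in these values was not tested.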

How the results depend on the processing

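All 26 bins of 5 Mb kept a median above 0 under the pseudocounts, filter, normalizations, edgeR, replicate sets and block tried on ATAC-seq, but sizes moved. The chromosome's median log2 ratio (1.54) was 1.8 with a pseudocount of 0.5, 0.81 with 5, 1.4 for peaks with a mean of at least 5, 1.24 after quantile normalization, 1.3 after centring on the other autosomes and 2.09 in edgeR on recovered reads. Peaks called higher (1004) were 248 with a pseudocount of 5 and 647 at a mean of at least 5, where 1664 peaks were tested, against 1282 with a pseudocount of 0.5 and 1457 in edgeR on recovered reads. Peaks called lower (24) were 1 with a pseudocount of 5, 40 with quantile normalization, 45 in edgeR and 15 in replicates 1 to 3. The highest bin median (2.1) was taken anew in each setting and need not stay in the same bin. It was 2.42 in 2.5 Mb bins and 1.18 with a pseudocount of 5. For summed values it was 2.84, at 110 to 115 Mb. For promoter peaks it was 1.54, at 100 to 105 Mb, among bins with at least 20 such peaks. The lowest bin median (0.51) was likewise taken anew in each setting. It was 0.0 in 2.5 Mb bins, 0.64 in 10 Mb bins and 0.31 for peaks over 2 kb from a start. For promoter peaks it was 0.41, at 20 to 25 Mb, and with a pseudocount of 5 it was 0.22. The αTC1 share was 1.63% in replicates 4 and 5. Rising peaks in the mixtures numbered 1365 at a mean of at least 5, and falling peaks 56 without the 10% and 90% mixtures. The mean composition estimate turned from 0.32 points above the mixed percentage to -4.07 with replicates 4 and 5 and was 13.9 on the log2 scale. Without the expression filter 179 genes were called higher and 16 lower, with a median of 1.35 over 742 genes. With spike-in scaling 227 genes passed FDR 5% in the higher direction in place of 361, with 16 of 34 housekeeping genes and 4 of 13 mitochondrial genes among them. The cause of these moves was not tested, except that filters change how many peaks or genes are tested.

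Leaving out 1 library moved the peaks called higher between 963 and 1034, those called lower between 19 and 26, the genes called higher between 89 and 95 and those called lower between 6 and 8. Of 384 values of named genes under alternatives, 373 kept direction and side of the threshold. Ghitm ranged from -0.03 to 0.1 (-0.03 without αTC1 replicate 3 and -0.02 without βTC6 replicate 3) and Nefl from -0.26 to 0.09 (0.03 without βTC6 replicate 1, -0.26 without replicate 2 and 0.09 without replicate 3). Bnip3l reached 0.42 without αTC1 replicate 3 (adjusted p = 0.00601 by edgeR). Over the alternatives the adjusted p by edgeR or DESeq2 ran from 3.15e-11 to 0.315 for Glud1, 2.73e-10 to 0.105 for Bmpr1a, 0.000332 to 0.0792 for Klf5, 6.07e-13 to 0.224 for Vdac2 and 2.89e-16 to 0.0928 for Rb1, each highest with spike-in scaling.

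With the replicate number as a replicate block, 1004 peaks were called higher and 24 lower, with a median of 1.54, and 93 genes higher and 8 lower, with a median of 1.2. Libraries with the same number did not deviate together (pair correlations -0.0 to 0.07 for ATAC-seq and -0.05 to 0.02 for RNA-seq), and 3 of 5 and 1 of 3 αTC1 libraries correlated best with their own number, so single numbers do not pair the libraries. Replicates 1 to 3 and replicates 4 and 5 nevertheless stood apart in both lines, with 987 and 1071 peaks called higher in each set alone. Low peaks stay uncertain: 190 peaks had at most 3 reads in every αTC1 library and 59 in every βTC6 library. The part of depth in this was not tested.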

Other observations

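A short stretch near the start of the chromosome was almost without reads. Of the 31 peaks at 5 to 7.5 Mb, 19 had at most 3 reads in all 10 pure libraries, out of 58 such peaks on chromosome 14. Without those 58 peaks, an alternative chosen after seeing the data, the median log2 ratio of the other 2772 was 1.57.

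The promoter peaks of a few genes with higher RNA in βTC6 had mixture slopes that did not pass FDR 5%, although the peaks were higher in pure βTC6. The peak shared by the starts of Nedd8 and Gmpr2 had 19.6 ± 2.03 normalized reads in αTC1 and 33.2 ± 0.634 in βTC6 (SD, n = 5 each), but a mixture slope of 0.07 ± 0.24 (SE, adjusted p = 0.809 by limma). The Dad1 peak had a slope of 0.26 ± 0.24 (adjusted p = 0.377 by limma) and the Rps24 peak one of 0.57 ± 0.31 (adjusted p = 0.128 by limma). The differences between these slopes and those of other promoters were not tested.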
